A study of Mus musculus with 4 samples.

Results

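The genes described here serve protein folding in the endoplasmic reticulum (ER): its chaperones and folding enzymes, the stress sensors of the unfolded protein response, and the machinery of ER-associated degradation (ERAD). They are 38 of the 53465 gene rows of the count table, taken by a list of symbols, and all 38 were found in the table. They comprise 19 chaperones and folding enzymes, 6 sensors and stress regulators, 9 ERAD genes, and 4 genes of protein translocation and UFM1 modification. Of these, 37 had enough reads to be tested. The study measured poly(A) RNA in 4 RNA-seq libraries of the mouse melanoma line B16. In 2 of them, called EM-plasma, cells had been exposed for 4 h to what the labels call plasma treated with exosome-mimetic nanovesicles (EMs), and the other 2 were controls. The labels do not say what kind of plasma was used, nor whether controls received a vehicle, nanovesicles or plasma without them, and no label says that the libraries came from separate cultures. The p-values therefore measure only the spread between these libraries, which may be technical.

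Secreted and membrane proteins enter the ER through the SEC61 channel and fold there with the help of chaperones such as BiP (Hspa5), the lectins calnexin and calreticulin, and oxidoreductases that form disulfide bonds. When unfolded proteins accumulate, the membrane sensors IRE1 (Ern1), PERK (Eif2ak3) and ATF6 raise chaperone and ERAD transcription, through the spliced form of XBP1 and the cleaved form of ATF6, and restrain translation. In ERAD, proteins that fail to fold are trimmed by EDEM mannosidases, passed through the HRD1 (Syvn1) and SEL1L complex, and degraded by the proteasome. The series title places the study in work on Golgi stress and ferroptosis, and the comparison of EM-plasma with control asks which of these transcripts differed after 4 h.

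Among the ER folding genes 1 passed the test between EM-plasma and control cells. Of 37 tested genes, 1 was called higher and 0 lower at an adjusted p below 0.05, in the quasi-likelihood test of edgeR, with p adjusted by Benjamini-Hochberg over all 13664 tested genes. Over all tested genes 6.21% were called in either direction, 3.34% higher and 2.88% lower. A list of 37 genes with 1 call (2.70%) cannot be told from that share by its calls. The called gene was Ero1l (Ero1a), the oxidase that recharges protein disulfide isomerase, at 1.23-fold the control level. BiP, calreticulin, calnexin and the sensors did not pass. In bulk RNA, more cells expressing a gene and more RNA per cell cannot be told apart. For 33 of the 37 genes the 95% interval of the fold change lay within 1.2-fold in both directions, as for 7219 of all 13664 tested genes. Intervals were narrower in these genes, with a median standard error of 0.050 in log2 units, against 0.070 for all tested genes.

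Promoter windows of some of these genes held a sequence element known from the unfolded protein response. The ER stress response element ERSE, bound by ATF6 together with NF-Y, was searched as CCAAT and CCACG with any 9 bases between them, on both strands of RefSeq promoter windows of GRCm38.p6, each 250 bases before to 50 after a gene's start. Windows were found for 33 of the 38 genes, and Hyou1, Manf, Atf6, Derl1 and Sec61a1 had none. The letters occurred in 10 of the 33 genes, against 39 of 32851 windows of all genes (0.119%). Their first bases lay 44 to 212 bases before the start, and Hsp90b1 had a pair of them. The matches are shown because ERSE is the element of the ATF6 branch; capitals mark the fixed letters, and each is written from CCAAT to CCACG.
Hspa5 (chr2:34772025-34772043, + strand): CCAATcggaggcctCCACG
Calr (chr8:84847075-84847093, + strand): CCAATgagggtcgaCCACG
Derl3 (chr10:75893242-75893260, - strand): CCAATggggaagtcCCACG
Hsp90b1 (chr10:86705638-86705656, - strand): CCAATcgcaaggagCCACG
Hsp90b1 (chr10:86705533-86705551, + strand): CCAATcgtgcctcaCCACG
Canx (chr11:50325800-50325818, - strand): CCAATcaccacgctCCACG
Pdia6 (chr12:17266491-17266509, + strand): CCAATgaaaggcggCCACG
Ero1lb (chr13:12565682-12565700, - strand): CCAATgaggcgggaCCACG
Dnajc3 (chr14:118937827-118937845, + strand): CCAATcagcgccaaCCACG
Creld2 (chr15:88819520-88819538, - strand): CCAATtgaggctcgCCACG
Syvn1 (chr19:6046532-6046550, + strand): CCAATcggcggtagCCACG

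The related element ERSE-II, ATTGG and CCACG with any 1 base between them, shares CCACG with ERSE. It occurred in Herpud1, 52 bases before the start, and in Dnajb11, 8 bases after it, against 0.0365% of all windows. The XBP1 element TGACGTGG occurred in 0 of the 33 genes and in 0.676% of all windows. The element TGATGNAA, found in targets of ATF4 and C/EBP factors, occurred in Herpud1 and in 3.97% of all windows. A match is a stretch of letters and does not show binding. The 250 bases before the RefSeq start are printed for BiP, the chaperone that reports on the response, and for Herpud1, which had a pair of different elements. They are also printed for Ero1l, the called gene, in whose window none of the 4 searched motifs occurred. In the GENCODE annotation Hspa5 begins at 34771970 and Ero1l at 45318771, inside the printed stretches. Part of each stretch, with the Hspa5 match, therefore lies within the GENCODE gene, and bases farther upstream of Ero1l were not searched. Capitals again mark the fixed letters of matches.
Hspa5 (chr2:34771840-34772089, + strand): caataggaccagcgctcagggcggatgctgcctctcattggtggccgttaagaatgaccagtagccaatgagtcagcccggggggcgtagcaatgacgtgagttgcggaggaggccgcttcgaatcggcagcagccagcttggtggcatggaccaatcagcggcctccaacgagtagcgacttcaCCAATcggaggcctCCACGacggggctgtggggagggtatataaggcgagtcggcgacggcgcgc
Herpud1 (chr8:94386179-94386428, + strand): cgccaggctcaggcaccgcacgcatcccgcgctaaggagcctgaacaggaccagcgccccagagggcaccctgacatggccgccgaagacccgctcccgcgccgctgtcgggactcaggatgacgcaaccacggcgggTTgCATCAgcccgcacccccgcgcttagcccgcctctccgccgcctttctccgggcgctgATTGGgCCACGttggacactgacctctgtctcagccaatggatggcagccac
Ero1l (chr14:45318573-45318822, - strand): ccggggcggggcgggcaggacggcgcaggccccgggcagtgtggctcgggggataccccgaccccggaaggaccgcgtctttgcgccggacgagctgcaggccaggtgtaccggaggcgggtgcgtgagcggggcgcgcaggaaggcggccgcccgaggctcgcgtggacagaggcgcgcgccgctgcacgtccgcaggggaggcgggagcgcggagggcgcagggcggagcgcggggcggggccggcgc

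The ERSE-bearing genes did not pass the test. Of the 9 that were tested 0 were called, against 6.21% of all tested genes. Their log2 fold changes of EM-plasma over control ran from -0.10 to 0.02 with a median of -0.04. The 23 tested genes whose windows lacked ERSE held the 1 call (4.35%) and had a median of -0.03. Lists this short cannot be told by their calls from the share of all genes or from each other. Derl3 carries an ERSE and had 0 reads in all 4 libraries, which allows at most 0.0648 CPM (counts scaled to a common library size) in the shallowest library, taking 3 counts as the limit for a count of 0. It was not tested.

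Levels spanned a wide range in both groups. To compare genes, CPM was divided by the summed exon length of each gene in kb, which underestimates genes with long unused exons. On this scale Calr, the lectin chaperone calreticulin, was the highest, with a mean of 403 CPM per kb in EM-plasma and 399 in control. P4hb, the founding protein disulfide isomerase, followed at 376 CPM per kb in EM-plasma and 359 in control. Canx, Hsp90b1, Hspa5, Pdia3 and Pdia4 lay between 207 and 277 CPM per kb in the single libraries. The order of their means was the same in both groups, but neighbours overlapped between replicates. In EM-plasma Hsp90b1 overlapped Hspa5, and in control Canx overlapped Hsp90b1, Hspa5 overlapped Pdia3, and Pdia3 overlapped Pdia4. In control 1 Pdia4, at 221 CPM per kb, stood above Pdia3, at 216. The sensors lay below the chaperones and isomerases named above. Atf6b averaged 45.0 CPM per kb in EM-plasma and 46.6 in control, and Xbp1 44.7 in EM-plasma and 44.1 in control. Ern1 averaged 5.86 CPM per kb in EM-plasma and 5.44 in control, and Eif2ak3 17.6 in EM-plasma and 17.3 in control. Some chaperones were lower than Atf6b and Xbp1, such as Dnajb9, at 8.87 CPM per kb in EM-plasma and 8.17 in control. Among the ERAD genes Derl1 was the highest, at 48.3 CPM per kb in EM-plasma and 49.3 in control, and among the translocation genes Sec61a1, the channel's main subunit, at 102 in EM-plasma and 98.6 in control.

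**Figure D1:**
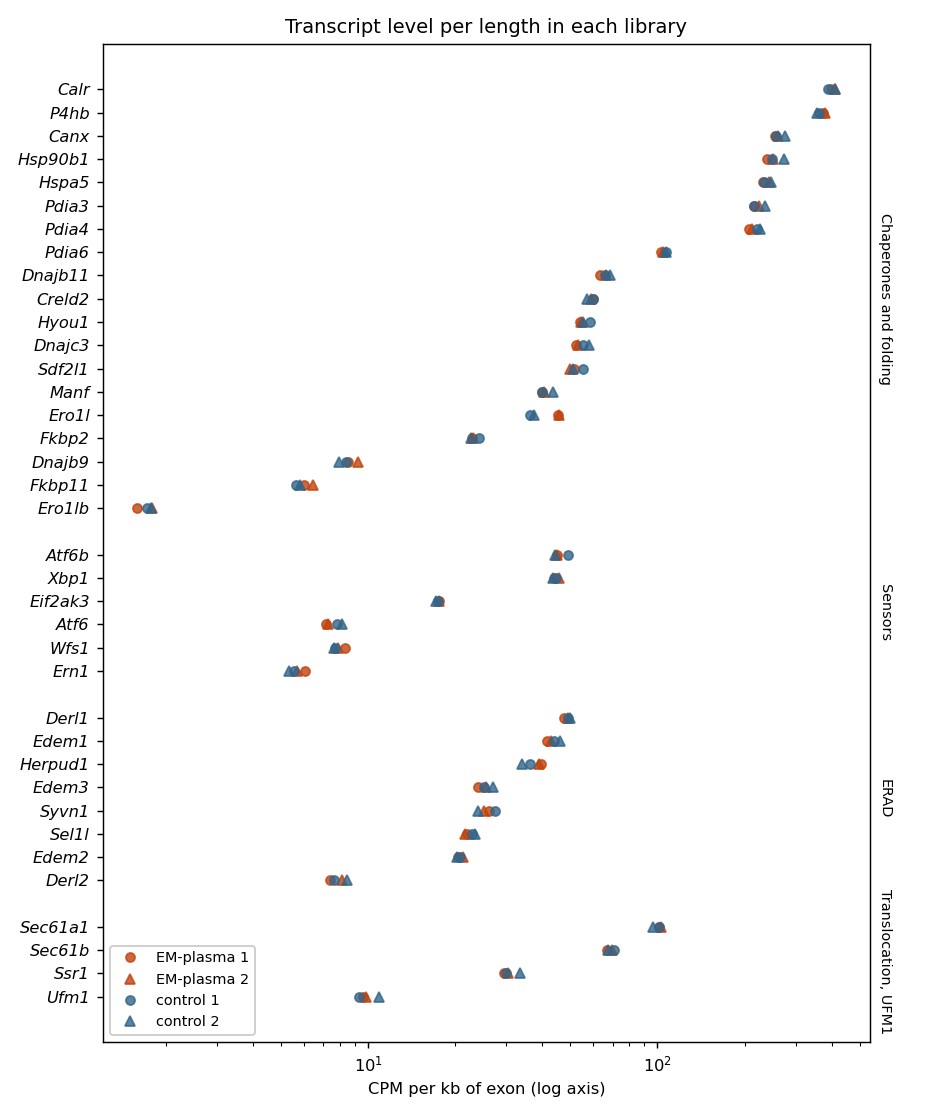
Level of each tested gene in CPM per kb of exon (log axis) in the EM-plasma (orange) and control (blue) libraries, with replicate 1 as circles and replicate 2 as triangles. The 4 points of a gene nearly coincide beside the range between genes, with Calr near 400 CPM per kb and Ero1lb below 2, and Ero1l shows its groups apart.

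The sensors act first in the pathway, and 0 of 6 were called, against 6.21% of all tested genes. So short a list cannot be told from that share by its calls. Ern1 (ENSMUSG00000020715), the kinase and endonuclease that splices Xbp1, had 49.3 and 46.4 CPM in EM-plasma libraries, against 45.3 and 43.6 CPM in control libraries. Its groups did not overlap, yet the log2 fold change of 0.11 missed the threshold (95% interval -0.02 to 0.24, adjusted p = 0.366 in edgeR's quasi-likelihood test). Eif2ak3, the PERK kinase that phosphorylates eIF2α, had 106.0 and 106.1 CPM in EM-plasma and 105.0 and 103.6 CPM in control, and the interval of its log2 fold change ran from -0.08 to 0.13. Both EM-plasma values stood just above both controls. Xbp1, whose spliced transcript encodes the active factor, had 142 and 148 CPM in EM-plasma and 145 and 142 CPM in control, so its groups overlapped. Counts per gene do not separate spliced from unspliced Xbp1, and IRE1 activity was not analysed here.

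The pair of ATF6 genes was not called either. Atf6 (chromosome 1, 170704674 to 170867771 on GRCm38, ENSMUSG00000026663) had 65.9 and 67.2 CPM in EM-plasma libraries, against 72.1 and 75.2 CPM in control libraries. Both EM-plasma values lay below both controls, and the log2 fold change was -0.15 (SE 0.057, 95% interval -0.26 to -0.03). Its unadjusted p was 0.0152 and its adjusted p 0.13 in edgeR's quasi-likelihood test, so it was not called. Atf6b, its paralog, had 124 and 124 CPM in EM-plasma and 135 and 122 CPM in control, where the control replicates spread on both sides of the EM-plasma values. Per kb, Atf6b made up between 84.4% and 86.3% of the pair in every library. Wfs1, wolframin, an ER membrane protein that restrains ATF6, had 31.5 and 29.8 CPM in EM-plasma and 29.2 and 28.9 CPM in control, and its log2 fold change was 0.08 (95% interval -0.06 to 0.22).

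Ero1l was the exception among the 19 chaperones and folding enzymes. The gene (chromosome 14, 45283087 to 45318771, minus strand, ENSMUSG00000021831) had 239 and 241 CPM in EM-plasma libraries, against 192 and 198 CPM in control libraries. The EM-plasma libraries differed from each other by far less than from either control. The mean was 239.9 ± 1.27 CPM in EM-plasma and 195 ± 4.39 CPM in control (SD, n = 2 each). The log2 fold change was 0.30 (SE 0.045, 95% interval 0.21 to 0.39), and the adjusted p was 7.01e-05 in edgeR's quasi-likelihood test. Ero1l was called in each fit that left out 1 library, with log2 fold changes of 0.27 to 0.32 and adjusted p from 0.0176 to 0.0339. In cells, ERO1 alpha passes electrons from protein disulfide isomerase to oxygen, and its gene is known as a target of CHOP and of hypoxia signalling.

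Its paralog Ero1lb (Ero1b), which is known from secretory tissues such as the pancreas, was scarce. It had 10.6 and 11.9 CPM in EM-plasma and 11.4 and 11.8 CPM in control, so its groups overlapped, and its log2 fold change was -0.04 (95% interval -0.25 to 0.16). Per kb, Ero1l made up 96.6% and 96.2% of the pair in EM-plasma and 95.5% in each control. The difference between the responses of the paralogs was not tested.

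The protein disulfide isomerases that work with ERO1 gave small values in both directions. P4hb had 1066 and 1086 CPM in EM-plasma and 1037 and 1020 CPM in control, and its log2 fold change was 0.06 (95% interval -0.01 to 0.14). Pdia4 had 498 and 511 CPM in EM-plasma and 530 and 544 CPM in control, so that both EM-plasma values were below both controls. Its log2 fold change of -0.09 had an unadjusted p of 0.0353 and an adjusted p of 0.209 in edgeR's quasi-likelihood test. Pdia6 had 385 and 391 CPM in EM-plasma and 400.0 and 401 CPM in control, and again both EM-plasma values were below control. Pdia3, which works with the lectin chaperones, had 676 and 702 CPM in EM-plasma and 679 and 737 CPM in control, and its groups overlapped.

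The main chaperones stayed close to control. Hspa5 (chromosome 2, 34771970 to 34777547) had 975 and 1023 CPM in EM-plasma and 988 and 1046 CPM in control, and its interval allowed at most a 1.04-fold rise. Hsp90b1, the ER member of the HSP90 family, had 964 and 1010.1 CPM in EM-plasma and 1005 and 1104 CPM in control. Its log2 fold change of -0.10 had an adjusted p of 0.209 in edgeR's quasi-likelihood test, and the groups overlapped. Calr had 1143 and 1178 CPM in EM-plasma and 1114 and 1184 CPM in control, and Canx 1192 and 1229 CPM in EM-plasma and 1205 and 1299 CPM in control. In each of these 4 genes the second replicate was above the first in both groups.

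Co-chaperones and small secreted factors did not pass either. Dnajc3, a BiP co-chaperone also known as P58IPK, had 268 and 273 CPM in EM-plasma and 284 and 298 CPM in control (log2 fold change -0.10, unadjusted p = 0.0278, adjusted p = 0.182 in edgeR's quasi-likelihood test). Its EM-plasma values were both below control. Dnajb9, the co-chaperone ERdj4 and a sensitive XBP1 target, had 21.8 and 23.5 CPM in EM-plasma and 21.5 and 20.2 CPM in control. The groups did not overlap, and the log2 fold change was 0.12 (95% interval -0.04 to 0.28). Sdf2l1, Creld2 and Manf, which rise early in ER stress in mouse and human cells, had log2 fold changes of -0.07, 0.02 and -0.05. Hyou1, Dnajb11, Fkbp2 and Fkbp11 had log2 fold changes of -0.06, -0.05, -0.03 and 0.13. Manf shares its locus with Rbm15b on the same strand, whose counts came to 59.95% of its own, and with Dcaf1 on the opposite strand, whose counts came to 91.0%. The strand setting of the counting is not known here, so reads of these genes cannot be cleanly told apart where exons overlap.

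**Figure D2:**
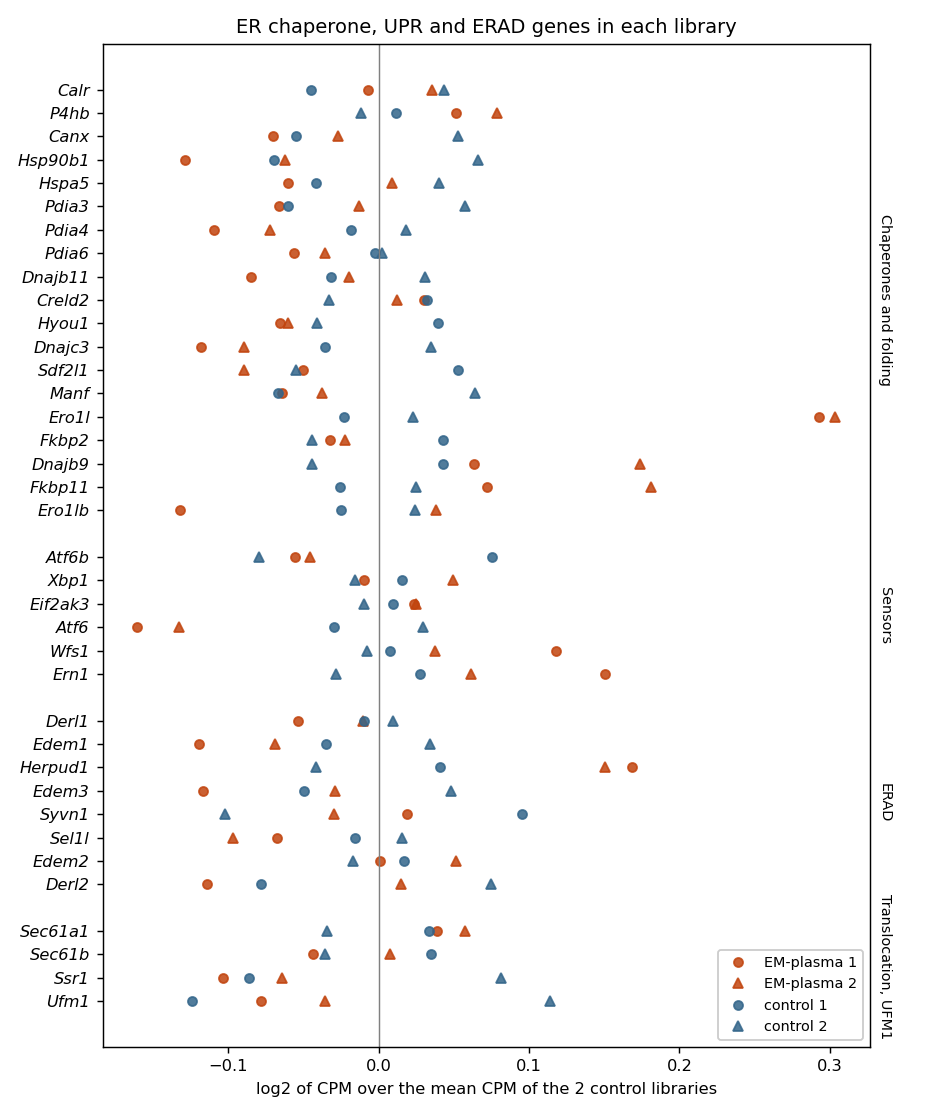
The log2 of each library's CPM over the mean CPM of the 2 control libraries, for the 37 tested genes by role; EM-plasma in orange, control in blue, replicate 1 as circles and replicate 2 as triangles. Ero1l stands apart at about 0.3, Atf6 is lower and Herpud1 higher in both EM-plasma libraries, and most other genes have EM-plasma points among or beside the controls.

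Among the ERAD genes Herpud1 had the smallest p. Herpud1, an ER membrane protein of the HRD1 complex and a target of both ATF6 and ATF4 (chromosome 8, 94386438 to 94395377, ENSMUSG00000031770), had 92.2 and 91.0 CPM in EM-plasma libraries, against 84.4 and 79.7 CPM in control libraries. Both EM-plasma values were above both controls. The log2 fold change was 0.16 (SE 0.054, 95% interval 0.05 to 0.27), with an unadjusted p of 0.00676 and an adjusted p of 0.0799 in edgeR's quasi-likelihood test, so it was not called. Its promoter, printed above, held both an ERSE-II and a TGATGNAA match.

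None of the 3 EDEM mannosidases passed the test. Edem1, an XBP1 target, had 267 and 277 CPM in EM-plasma and 283 and 297 CPM in control. Both of its EM-plasma values were below control (log2 fold change -0.09, adjusted p = 0.24 in edgeR's quasi-likelihood test). Edem2 had 71.1 and 73.6 CPM in EM-plasma and 71.9 and 70.2 CPM in control. Edem3 had 153 and 163 CPM in EM-plasma and 161 and 172 CPM in control, and the groups of both genes overlapped. Per kb, Edem1 made up 48.2% and 47.8% of the family in EM-plasma and 48.9% and 49.4% in control.

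The derlins, which form part of the exit channel, were led by Derl1, at 158 and 163 CPM in EM-plasma and 163 and 165 CPM in control, narrowly without overlap. Derl2 had 59.7 and 65.3 CPM in EM-plasma and 61.2 and 68.0 CPM in control, and it overlaps Mis12 on the opposite strand, whose counts came to 117% of its own. Sel1l, the scaffold of the complex, had 188 and 185 CPM in EM-plasma and 195 and 199.6 CPM in control, with both EM-plasma values below control and its log2 fold change was -0.08 (95% interval -0.18 to 0.01). Syvn1, the ubiquitin ligase HRD1, had 127 and 122 CPM in EM-plasma and 134 and 116 CPM in control. The control replicates of Syvn1 lay on either side of both EM-plasma values, and it overlaps Mrpl49 on the opposite strand, whose counts came to 45.5% of its own.

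Translocation genes were near control as well. Sec61a1 had 681 and 691 CPM in EM-plasma and 679 and 648 CPM in control, with a log2 fold change of 0.05. Sec61b, a small channel subunit, and Ufm1, a ubiquitin-like modifier that is attached to ribosomes at the ER, had log2 fold changes of -0.02 and -0.06. Ssr1, a subunit of the translocon-associated protein complex, had 308 and 317 CPM in EM-plasma and 312 and 350.0 CPM in control. Its log2 fold change of -0.08 (adjusted p = 0.361 in edgeR's quasi-likelihood test) passed when control 1 was left out, at -0.17 with an adjusted p of 0.0493, and was 0.0051 without control 2 (adjusted p = 0.955).

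**Figure D3:**
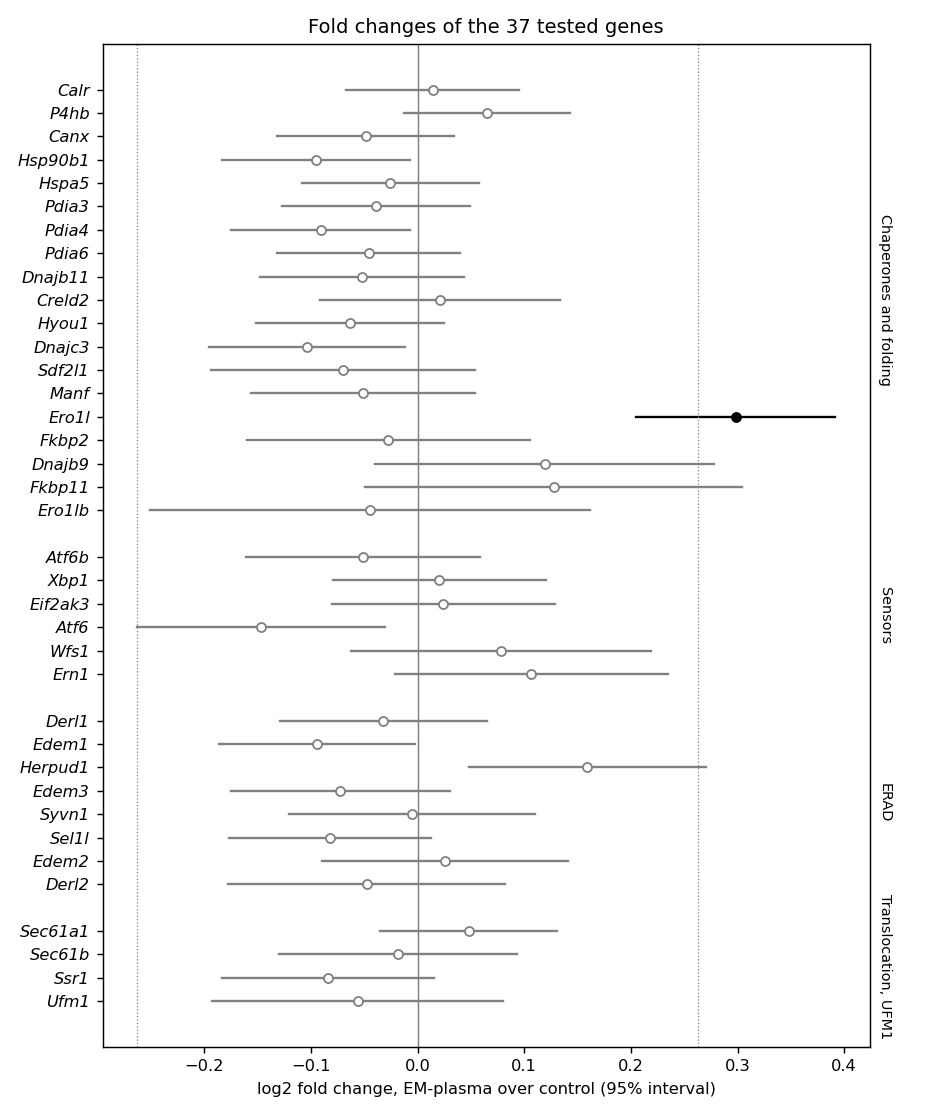
Log2 fold change of EM-plasma over control with its 95% interval for the 37 tested genes; the filled point has an adjusted p below 0.05, and dotted lines mark 1.2-fold in either direction. Ero1l is the filled point, at 0.30, and the intervals of Ero1l, Dnajb9, Fkbp11 and Herpud1 reach past the right line.

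Taken over the 37 genes, 7 had an unadjusted p below 0.05 (18.9%), 2 higher and 5 lower. Of all tested genes 19.5% did, 9.7% higher and 9.84% lower. The 7 were Ero1l, Herpud1, Atf6, Dnajc3, Pdia4, Hsp90b1 and Edem1, and the adjusted p of the 6 that were not called ran from 0.0799 to 0.24 in edgeR's quasi-likelihood test. Groups did not overlap in 17 genes (45.9%), 9 higher and 8 lower, against 49.1% of all tested genes, 24.3% higher and 24.8% lower. These shares were near those of all genes. Log2 fold changes were below 0 in 24 of 37 genes (64.9%), against 50.9% of all tested genes, and their median was -0.04, against -0.0027 for all. Without control 2 they were below 0 in 18 of 37, with a median of 0.0051.

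Grouped by the branch that is known to drive them, 0 of 11 tested ATF6 targets and 0 of 15 XBP1 targets were called. Over all tested genes 6.21% were called, and lists this short cannot be told from that share by their calls. The median log2 fold change was -0.05 for ATF6 targets, which include Hspa5, Hsp90b1 and Hyou1, and -0.03 for XBP1 targets, which include Dnajb9, Edem1 and Sec61a1. Together the 38 genes took 1.12% and 1.14% of all counts in EM-plasma libraries, against 1.12% and 1.16% in control libraries. The 19 chaperones and folding enzymes summed to 8369 and 8621 CPM in EM-plasma and 8439 and 8825 CPM in control, so that the groups overlapped.

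The EM-plasma replicates differed in 1 direction over most members. EM-plasma 2 was above EM-plasma 1 in 30 of 37 genes (81.1%), against 52.1% of all tested genes, and in 17 of the 19 chaperones and folding enzymes. Control 2 was above control 1 in 21 of 37 genes (56.8%), against 50.1% of all tested genes, in 13 of the 19 chaperones and folding enzymes and in 1 of the 6 sensors. In 22 of 37 genes the gap between the control libraries was wider than the difference between the group means. The same held in 7266 of all 13664 tested genes. Over the whole table the chi-square per gene between replicates, about 1 where they differ by sampling noise alone, was 2.84 for EM-plasma and 7.63 for control. The part of this replicate spread in the gene results was not tested beyond leaving out each library.

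Other genes of the ER were read from 150 listed by role, of which 143 were tested. Of these, 7 were called higher and 3 lower (6.99%), near the share of all tested genes (6.21%). Of 34 tested ERAD genes beyond the members, which include Vcp and Os9, edgeR and DESeq2 each called 0, and 3 had an unadjusted p under 0.05. Of 7 genes of UFM1 conjugation, 17 partners of the sensors and 6 ER-phagy receptors and factors both tools again called 0, and each list held 1 gene with an unadjusted p under 0.05. Of 30 other folding genes 1 was called higher and 1 lower. Uggt2, a folding sensor that adds glucose to glycoproteins, rose to 27.1 and 27.0 CPM in EM-plasma, against 19.5 and 21.0 CPM in control (log2 fold change 0.42, adjusted p = 0.000487 in edgeR's quasi-likelihood test). Dnajc1, a co-chaperone, fell to 185 and 187 CPM in EM-plasma, against 201 and 214 CPM in control (log2 fold change -0.15, adjusted p = 0.0483). Of 33 translocation and oligosaccharyltransferase genes 1 was called, Magt1, an oxidoreductase subunit of that transferase. Magt1 fell to 213 and 218 CPM in EM-plasma, against 251 and 276 CPM in control (log2 fold change -0.29, adjusted p = 0.000233 in edgeR's quasi-likelihood test). Without control 2 the calls of Uggt2, Dnajc1 and Magt1 ended (adjusted p = 0.0673, 0.224 and 0.0804), and that of Dnajc1 also without EM-plasma 1 or EM-plasma 2 (0.608 and 0.485) and with library totals as the scaling (0.0652).

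RNAs that IRE1 is known to cut in mouse cells held 1 call among 4 tested (25.0%), against 6.21% of all tested genes. A list this short cannot be told from that share by its calls. Hgsnat, a lysosomal acetyltransferase, fell to 242 and 244 CPM in EM-plasma, against 278 and 282 CPM in control (log2 fold change -0.20, adjusted p = 0.00442 in edgeR's quasi-likelihood test). This call ended without control 2, EM-plasma 1 or EM-plasma 2 (adjusted p = 0.0859, 0.283 and 0.227). Bloc1s1, the best known of these RNAs, had 3.60 and 4.36 CPM in EM-plasma and 4.16 and 3.33 CPM in control, with overlapping groups.

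The genes listed as outputs of PERK, which act through ATF4, held the most calls of these lists. The activity of PERK was not measured, and whether it raised these genes was not tested. Of the 12 genes tested in this list, 6 were called higher and 0 lower. The 6 were Atf4, Ddit3, Atf3, Chac1, Nupr1 and Trib3. The median log2 fold change of the list was 0.26. Log2 fold changes were below 0 in 3 of the 12 genes, down to -0.26. Of these 3, 1 had an unadjusted p below 0.05 in edgeR's quasi-likelihood test. Trib3, a pseudokinase that dampens ATF4, rose to 24.8 and 26.8 CPM in EM-plasma, against 17.8 and 16.8 CPM in control (log2 fold change 0.58, adjusted p = 1.21e-05 in edgeR's quasi-likelihood test). Chac1, which degrades glutathione, had a log2 fold change of 0.47, Ddit3, the factor CHOP, of 0.34, and Atf4 itself of 0.17. Ppp1r15a, the phosphatase subunit that reverses eIF2α phosphorylation, had 21.9 and 22.6 CPM in EM-plasma and 19.4 and 18.1 CPM in control, and an adjusted p of 0.0578. Leaving out either EM-plasma library gave 3 calls, leaving out control 1 gave 4, and leaving out control 2 gave 0. DESeq2 called 5, without Atf3 (adjusted p = 0.0829), and with no low-count filter edgeR called 0. The median stayed above 0 in each fit that left out a library, from 0.20 to 0.32.

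**Figure D4:**
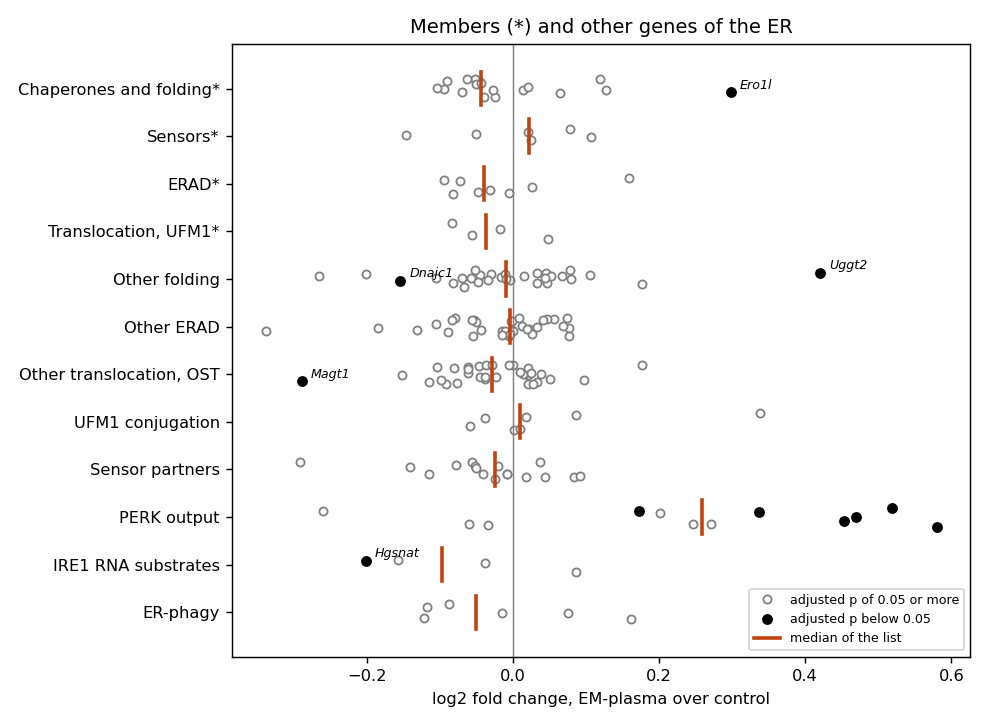
Log2 fold change of EM-plasma over control for the member classes (starred) and other lists of ER genes; each point is a gene, filled where the adjusted p is below 0.05, and orange bars are list medians. The member medians lie between -0.04 and 0.02, and filled points gather in the PERK output list, whose median is 0.26.

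The call of Ero1l was the same under other scalings, a stricter filter, DESeq2 and a newer dispersion estimate, and ended without a low-count filter (adjusted p = 0.0895), a setting in which the whole table held 14 calls. Of the other 36 tested genes 0 were called in the reported edgeR fit or by DESeq2, and 6 had an unadjusted p below 0.05 in the reported fit. With the replicate block edgeR also called Herpud1 and Atf6.

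**Figure D5:**
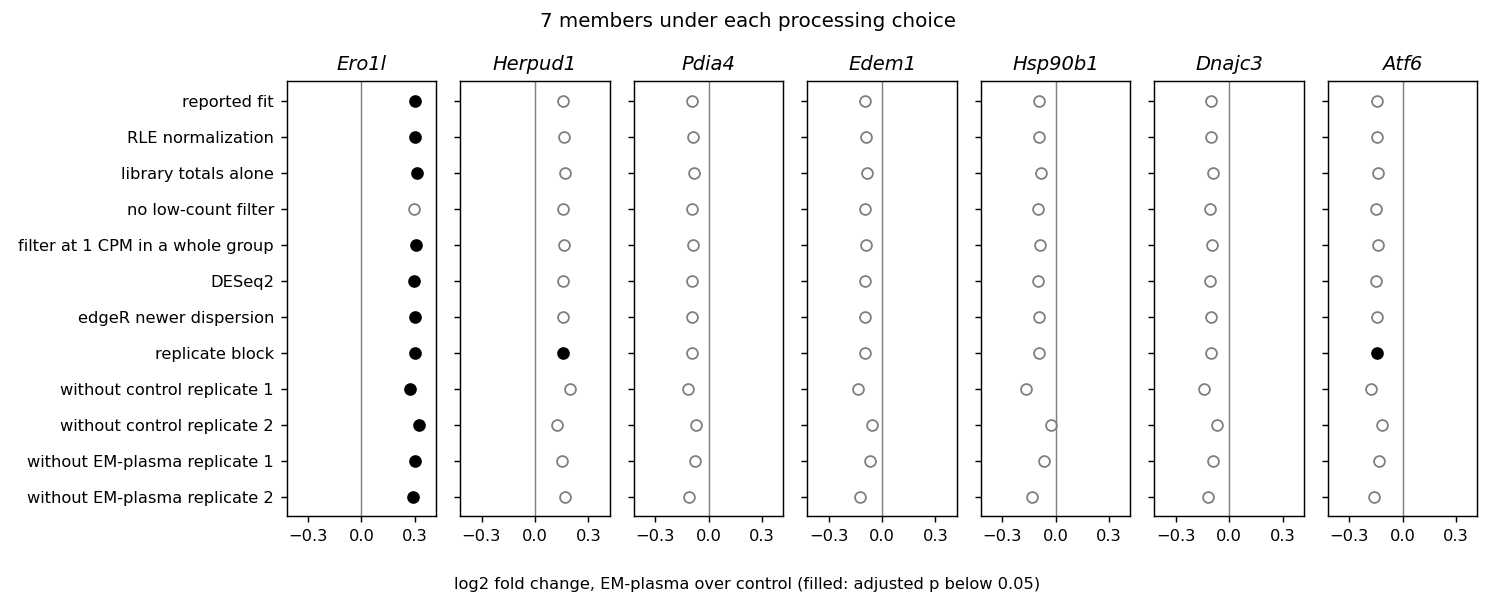
Log2 fold change of EM-plasma over control under the reported fit and each alternative for the 7 genes with an unadjusted p below 0.05, filled where the adjusted p is below 0.05. Ero1l is filled in all settings but the unfiltered one, Herpud1 and Atf6 with the replicate block alone, and all 7 keep their direction.

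The libraries held 46295133 and 46557637 counts in EM-plasma and 49367932 and 47664388 in control. The melanocyte markers Mitf, Sox10, Pmel, Mlana, Tyr, Tyrp1 and Dct were present in every library, at 35.3 to 4111 CPM. Of 18 markers of leucocytes, vessels, fibroblasts, epithelium and blood, 15 stayed below 1 CPM and the highest, Col1a1, reached 4.27 CPM.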

How the data were processed

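CASAVA, HTSeq, edgeR, TopHat2 2.1.1 and the build GRCm38 are named, without roles, per the submitters' processing notes. The sources used here name neither the annotation nor the strand setting. The count table deposited by the authors holds raw reads per Ensembl gene and library, from poly(A) RNA and a stranded kit, per the labels' protocols. The authors' scaled tables were not used. Symbols and lengths came from GENCODE M21 (GRCm38), matching 99.8% of rows, and promoters from RefSeq (GRCm38.p6).

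Genes were kept by filterByExpr (13664) and scaled by TMM; the test was edgeR 4.0.16 (R 4.3.3), quasi-likelihood, on group alone, two-sided. Standard errors were derived from the F statistic. CPM uses TMM-scaled totals of tested genes. Counts were simulated for EM-plasma against control (13482 genes fitted), with a biological coefficient of variation of 4% for all genes and both groups. In them the test recovered 37.3%, 75.4% and 88.1% of genes changed 1.2-fold, 1.5-fold and 2-fold. It called 7 of 13287 unchanged ones. In the data the control replicates differed more than the EM-plasma replicates, so these rates may not hold there. Intervals hold only counting error and spread among the 4 libraries.

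The members, the other ER lists and the naming rule were chosen with earlier results of these data known. The rule gave per-library values for members called or with an unadjusted p below 0.05, the most abundant of each class, sensors and paralogs, plus up to 2 called genes per other list and 4 PERK outputs; other named members add to these. Alternatives were RLE and unscaled totals, no and a stricter filter, DESeq2 1.42.0, a newer dispersion, a replicate block and each library left out.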

Additional observations from a re-analysis of the deposited data

How the results depend on the processing

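Of all tested genes, 456 were called higher and 393 lower. Without a low-count filter these counts were 13 and 1, and with a replicate block 832 and 851; DESeq2 called 246 higher. With 1 library left out they ranged from 48 to 258 higher and from 23 to 289 lower, fewest without control 2. Among the members 1 was called higher and 0 lower. Without a low-count filter 0 were higher, and the cause was not tested; with the block 2 were higher (Ero1l and Herpud1) and 1 lower (Atf6, adjusted p = 0.0394). With 1 library left out, members called higher numbered 1 and members called lower 0 to 1. For the other ER lists, 7 genes were higher and 3 lower. No filter gave 0 and 0, the block gave 7 lower, and leaving out 1 library gave 0 to 5 higher and 0 to 4 lower. The replicate numbers are shared only as numbers: the deviations of same-numbered libraries correlated at 0.0393 over 13664 genes, so the block was not used for the reported values.

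Of 407 values of single members under alternatives, 403 kept their side of the threshold and none that was called reversed. The sign changed in 23, over 16 members, all with an absolute log2 fold change of at most 0.084. Fits without either EM-plasma library had 14100 total degrees of freedom and a biological coefficient of variation of 5.01%, and fits without control 1 or control 2 had 5.71 and 5.27 and a coefficient of 2.44%. With all 4 libraries these were 27.5 and 4.0%. In each fit with 1 library left out the lone library was assumed to vary like the other group. In the simulated counts, with 2 libraries per group, 37.3% of genes changed 1.2-fold were recovered, and smaller changes were not simulated. Some genes with smaller changes were called in the data, such as Atf4, at a log2 fold change of 0.17.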
